A study of Mus musculus with 6 samples.

Results

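The genes described here are 6 of the 32285 genes in the count table, chosen by name because they move thyroid hormone into the cell, activate it, hold it or answer to it. They are *Slco1c1*, *Dio2*, *Crym*, *Thra*, *Thrb* and *Klf9*. The libraries are droplet-based single-cell RNA-seq (3′ chemistry) of striatal cells enriched for astrocytes with magnetic beads against the surface antigen ACSA2. Both ages came from male C57BL/6 mice (C57BL/6Jax in the methods of the study) of wild-type genotype, aged 3 days after birth (P3) in 3 libraries and 3 months (3m) in the other 3, and the labels name no treatment. The study describes the libraries of each age as independent preparations. After the study's cell filter 14373 cells remained, of which 9992 were astroglial, 1118 of them at 3m and 8874 at P3.

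Thyroid hormone enters the brain largely as thyroxine, a precursor with little activity of its own, through transporters in the capillary wall and in astrocyte endfeet. Astrocytes convert thyroxine to the active triiodothyronine and are held to supply much of the hormone that brain cells use. Triiodothyronine acts through nuclear receptors that sit on DNA with or without hormone, repressing target genes without it and activating them with it. Each of the 6 genes has a place in this sequence. *Slco1c1* encodes a thyroxine transporter of brain capillaries and astrocytes, *Dio2* the deiodinase that makes triiodothyronine, and *Crym* the cytosolic triiodothyronine-binding protein mu-crystallin. *Thra* and *Thrb* encode the alpha and beta receptors, and *Klf9* is a zinc finger transcription factor that is a direct target of the receptors in brain.

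All 6 are protein-coding genes of the GENCODE M21 annotation on the GRCm38 build. *Slco1c1* lies on the plus strand at chr6:141524368-141570177 and *Dio2* on the minus strand at chr12:90724552-90738438. *Crym* is on the minus strand at chr7:120186380-120202111. *Thra* is on the plus strand at chr11:98740638-98769006 and *Thrb*, with 377.8 kb the longest of the 6, on the plus strand at chr14:17660261-18038090. *Klf9* is on the plus strand at chr19:23141226-23168134. Counts are per gene. The alpha receptor gene gives both a hormone-binding and a non-binding isoform, which these counts do not separate, and its 3′ end overlaps a gene of the opposite strand, so its counts are uncertain to the extent that strand was not kept in counting.

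Promoter windows are shown for the members that were higher at 3m and have an entry in the RefSeq promoter table (GRCm38.p6, 250 bases before to 50 after a transcription start), since these members were called higher. Capitals mark a match to AGGTCA, the half-site that thyroid hormone receptors bind, or to TGACGTCA, the cAMP response element, each searched on both strands. The windows, each 5′ to 3′ on the gene's own strand, are chr6:141524104-141524403 (plus) for *Slco1c1*, chr12:90738989-90739288 (minus) for *Dio2* and chr14:17660710-17661009 (plus) for the first of the *Thrb* starts.
Slco1c1: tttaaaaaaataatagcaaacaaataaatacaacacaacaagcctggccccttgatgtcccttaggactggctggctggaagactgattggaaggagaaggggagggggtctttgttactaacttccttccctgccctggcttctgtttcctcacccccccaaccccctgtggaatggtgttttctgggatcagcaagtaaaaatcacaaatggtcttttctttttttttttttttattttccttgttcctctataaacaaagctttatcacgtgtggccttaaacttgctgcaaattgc
Dio2: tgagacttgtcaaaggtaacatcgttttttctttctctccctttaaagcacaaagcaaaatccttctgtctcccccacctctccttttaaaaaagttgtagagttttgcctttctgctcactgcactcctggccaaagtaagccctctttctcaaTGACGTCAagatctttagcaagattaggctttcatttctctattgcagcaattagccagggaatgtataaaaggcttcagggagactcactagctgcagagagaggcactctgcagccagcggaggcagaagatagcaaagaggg
Thrb: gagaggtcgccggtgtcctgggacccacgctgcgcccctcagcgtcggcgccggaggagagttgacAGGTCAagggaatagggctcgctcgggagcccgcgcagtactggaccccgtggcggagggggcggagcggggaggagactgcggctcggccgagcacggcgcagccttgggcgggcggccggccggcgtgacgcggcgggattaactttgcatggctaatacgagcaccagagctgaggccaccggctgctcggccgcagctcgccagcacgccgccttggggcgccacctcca
The *Thrb* window held 1 half-site, and 16.3% of the 32851 windows in the table hold at least 1. The *Dio2* window held the cAMP response element, which 1.79% of all windows hold. Neither motif was found in the *Slco1c1* window, in that of the second *Thrb* start or in that of *Klf9*. These matches describe the letters of these windows and say nothing of binding.

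Astroglial cells gave between 1157485 and 1843998 UMIs per 3m library and between 22327104 and 30617140 per P3 library, so a weakly detected gene has a wider counting error at 3m. Levels are UMIs per 1000000 of the same sum (CPM). Replicate 1 of each age stood apart in the authors' clustering of the astroglial cells. It held 1156 of the 1211 cells of P3 sub-cluster 1 and 182 of the 184 cells of 3m sub-cluster 14. The summed level of 7 oligodendrocyte markers in astroglial cells was 731 to 1927 CPM at 3m and 6.53 to 7.26 CPM at P3. Endothelial markers summed to at most 14.8 CPM in any astroglial sum. Of the cell barcodes past the filter, 28 of 14345 occurred in more than 1 library. The 7 astrocyte markers summed to between 14509.8 and 15388.5 CPM at 3m and between 5116 and 6157 CPM at P3, so they were higher at 3m as were 4 of the members, and their part in the members' differences was not tested.

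In sums of all astroglial cells, mRNA of the genes for hormone transport, activation, cytosolic binding and the beta receptor stood higher at 3m than at P3. *Crym* and *Slco1c1* did not rise in the non-telencephalic cells described below. *Slco1c1*, *Dio2*, *Crym* and *Thrb* were called higher, 4 of the 6 members, where a call needs an adjusted p of at most 0.05 and a change of at least 1 on the log2 scale. All 6 passed the low-count filter. Of the 13530 genes tested, 32.1% were called and 15.8% were called higher at 3m, and the median log2 fold change was 1.52 over the 6 members and -0.04 over all genes tested.

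The thyroxine transporter *Slco1c1* stood at 578, 341 and 477 CPM in 3m replicates 1, 2 and 3. At P3 its levels were 135, 117 and 145 CPM. The lowest 3m library was above every P3 library, and the means were 465 ± 119 and 132 ± 14 CPM (SD, n = 3 each). On the log2 scale it was 2.00 higher at 3m (SE 0.20, edgeR adjusted p = 4.12e-06). In both oligodendrocyte clusters, named ODC_2 and ODC_10, *Slco1c1* was at 11.7 and 6.06 CPM with libraries pooled. By library, ODC_2 ran from 7.97 to 178 CPM (median 9.31).

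*Dio2*, whose enzyme is the source of triiodothyronine in brain, was at 121, 55.9 and 99.2 CPM in the 3m libraries. In the P3 libraries it was at 44.7, 24.9 and 28.9 CPM. Again no 3m library overlapped a P3 library, although 3m replicate 2 came close to P3 replicate 1. It rose by 1.66 on the log2 scale (SE 0.26, edgeR adjusted p = 0.00019). The oligodendrocyte clusters held it at 7.41 and 3.13 CPM with libraries pooled. By library, ODC_2 ran from 5.61 to 62.5 CPM (median 7.37), the highest being above 3m astroglial replicate 2.

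*Crym* was the most variable member at P3. Its 3m levels were 1656, 1645 and 1305 CPM, and its P3 levels 286, 910.5 and 789.8 CPM. The groups did not overlap, but P3 replicate 1 was far below the other P3 libraries. From P3 to 3m it rose by 1.39 on the log2 scale (SE 0.35, edgeR adjusted p = 0.0053). Without replicate 1 of both ages the change was 0.98 and was no longer called, an alternative chosen after seeing the data.

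*Thrb*, the beta receptor, showed the steepest difference of the 6. The 3m libraries held it at 40.6, 31.5 and 34.6 CPM and the P3 libraries at 4.48, 3.66 and 4.15 CPM. These rest on 156 UMIs at 3m and 314 at P3. The groups were far apart, with means of 35.6 ± 4.65 and 4.10 ± 0.41 CPM (SD, n = 3 each). Its log2 fold change of 3.30 (SE 0.20, edgeR adjusted p = 4.31e-08) corresponds to 9.84-fold.

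*Thra*, the alpha receptor, was the only member with a lower mean at 3m. The 3m libraries held it at 91.6, 171 and 107 CPM, against 197, 189 and 241 CPM in the P3 libraries. Every 3m library lay below every P3 library, by little for 3m replicate 2. Its log2 fold change was -0.55 (SE 0.22, edgeR adjusted p = 0.0535), so it was not called. Without 3m replicate 2 it was -0.93 (adjusted p = 0.00355), still short of the fold a call needs. The oligodendrocyte clusters held *Thra* at 448 and 391 CPM, above every astroglial library, and the part of oligodendrocyte RNA in the 3m astroglial values was not tested.

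*Klf9*, the receptor target, was at 167, 157 and 185 CPM in the 3m libraries. At P3 it was at 144, 96.2 and 115 CPM, below each 3m library. Its log2 fold change of 0.71 (SE 0.17, edgeR adjusted p = 0.0043) passed the p threshold but not the fold. Under a stricter cell filter (more than 1000 genes, less than 5% mitochondrial UMIs) the change was 0.37 (edgeR adjusted p = 0.267). That filter kept 237 of 1118 astroglial cells at 3m, and 12 of 213 in 3m replicate 1. In sums per library, fewer expressing cells and less RNA per cell cannot be told apart.

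**Figure D1:**
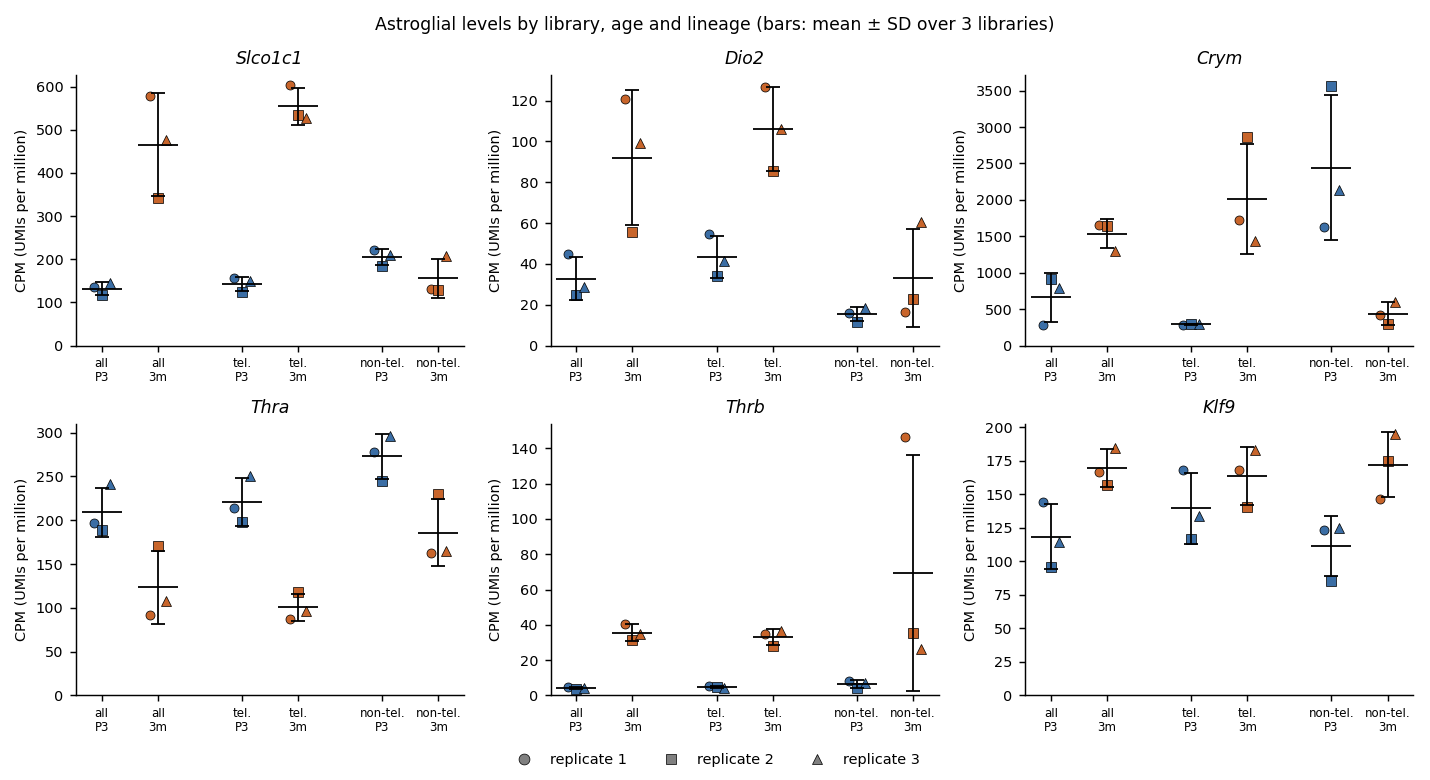
Astroglial level of each member in CPM (vertical axis, linear from 0) for all astroglial cells and for the telencephalic (tel.) and non-telencephalic (non-tel.) sub-clusters, P3 in blue and 3m in orange; each symbol is 1 library and the bars are the mean ± SD of 3. In telencephalic cells *Crym* sits between 277 and 302 CPM at P3 and between 1435 and 2864 CPM at 3m, and in non-telencephalic cells the order of the ages is the reverse.

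The age difference of *Crym* ran in opposite directions in the astroglial lineages. The study placed P3 sub-clusters 0, 1, 2, 9 and 11 with 3m sub-clusters 7 and 14 on the telencephalic side, and P3 sub-clusters 3, 4, 5, 10, 12 and 15 with 3m sub-clusters 13 and 16 with non-telencephalic astrocytes, which it considered possible contaminants from neighbouring regions. Non-telencephalic cells made up 7.98%, 47.8% and 13.9% of astroglial cells in the 3m libraries and 7.61%, 29.2% and 51.5% in the P3 libraries. Only 17 such cells came from 3m replicate 1. Sub-cluster 16 held 121 of the 328 such cells of 3m. By its immature and mature gene sets the study described that sub-cluster as closer to early postnatal astrocytes.

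In telencephalic cells *Crym* was at 1725, 2864 and 1435 CPM in the 3m libraries. At P3 it was at 277, 292 and 302 CPM, with almost no spread, and P3 replicate 1 no longer stood apart. There *Crym* rose by 2.99 on the log2 scale (SE 0.25, edgeR adjusted p = 1.57e-09). In non-telencephalic cells *Crym* was at 423, 294 and 603 CPM at 3m and at 1634, 3556 and 2132 CPM at P3. Here the 3m libraries were all below the P3 libraries, and *Crym* fell by 2.21 on the log2 scale (SE 0.36, edgeR adjusted p = 1.18e-05). The P3 level was carried by sub-cluster 3, at 6155 CPM on 33490 UMIs (4835 to 6654 CPM over 3 libraries), the highest of all 17 sub-clusters.

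*Slco1c1* differed between ages in telencephalic cells and not detectably in the others. Telencephalic cells held it at 603, 533 and 527 CPM at 3m and at 156, 124 and 149 CPM at P3. It rose there by 2.16 on the log2 scale (SE 0.18, edgeR adjusted p = 1.03e-09). Non-telencephalic cells held it at 130.2, 128 and 208 CPM at 3m, against 221, 185 and 210.1 CPM at P3, and the ages overlapped. Their log2 fold change was -0.06 (SE 0.26, edgeR adjusted p = 0.887).

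The difference between lineages was itself tested, with sums per library and lineage and the library as a block, a test added after seeing the data. *Crym* and *Slco1c1* were called, 2 of 6 members, where 17.1% of 10181 genes were called. The log2 fold change from P3 to 3m was greater in telencephalic than in non-telencephalic cells by 5.26 for *Crym* (SE 0.35, edgeR adjusted p = 7.11e-12) and by 2.32 for *Slco1c1* (SE 0.19, adjusted p = 4.3e-10). For *Thra* the difference was -0.62 (SE 0.18, adjusted p = 0.0143), below the fold of a call. *Thrb* gave -0.12 (SE 0.46), *Dio2* 0.14 (SE 0.34) and *Klf9* -0.52 (SE 0.19), and none of them passed the p threshold (adjusted p = 0.904, 0.832 and 0.0519). The sub-clusters were made by the authors from the same expression values and hold other cells at each age, so a change within a lineage and a change in which cells were captured cannot be told apart.

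Within telencephalic cells alone 4 of 6 members were called, where 29.6% of 12335 genes were. These were *Slco1c1*, *Dio2*, *Crym* and *Thrb*, and *Thra* fell by 0.93 on the log2 scale (SE 0.18, edgeR adjusted p = 0.000173), short of the fold. *Klf9* had a log2 fold change of 0.44 there (SE 0.17, edgeR adjusted p = 0.0412), also short of it. Its levels were 168, 140 and 183 CPM at 3m and 168, 117 and 134 CPM at P3, and the ages overlapped. Within non-telencephalic cells 4 of 6 were called, where 29.5% of 8822 genes were. *Thrb* (log2 fold change 3.16), *Dio2* (1.42) and *Klf9* (1.03) were called higher at 3m there (edgeR adjusted p = 1.42e-07, 0.00413 and 0.00104) and *Crym* lower. *Thrb* was at 147, 35.5 and 26 CPM at 3m, the first on 9 UMIs, and at 8.36, 4.23 and 6.81 CPM at P3. *Klf9* was at 147, 175 and 195 CPM at 3m and at 124, 85.7 and 125 CPM at P3. Neither gene overlapped between the ages, whereas *Dio2* did, at 16.3, 22.9 and 60.8 CPM at 3m and 15.9, 11.7 and 18.5 CPM at P3.

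Levels among sub-clusters showed where the members concentrated. Clusters and sub-clusters were made from these same expression values, so their levels are a description with no test. *Dio2* at P3 was at 68.2 and 64.1 CPM in telencephalic sub-clusters 1 and 9, but at 19.2 and 4.69 CPM in telencephalic sub-clusters 2 and 11. Non-telencephalic P3 sub-clusters ran from 6.80 CPM in sub-cluster 3, the one richest in *Crym*, to 32 CPM in sub-cluster 10. Sub-cluster 11 was the P3 sub-cluster lowest in *Crym*, at 17.5 CPM. At 3m *Slco1c1* was at 618 and 524 CPM in sub-clusters 14 and 7 and at 164 and 76.4 CPM in sub-clusters 13 and 16. *Thra* showed the opposite 3m order, with 265 and 199 CPM in sub-clusters 16 and 13 and 105 and 88.8 CPM in 7 and 14. *Thrb* was between 28.2 and 43.4 CPM in all 4 of the 3m sub-clusters, and their counting intervals overlapped. In P3 replicate 1 *Crym* was at 2342 CPM in sub-cluster 0 and at 195 CPM in sub-cluster 1, while in replicates 2 and 3 it was at 530 and 559 CPM in sub-cluster 0. The telencephalic sum, which joins these sub-clusters, did not show that split.

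Across the authors' 24 clusters each member had its own distribution. *Slco1c1* was highest in capillary cells, at 914 CPM (95% Poisson interval 901 to 928) in the endothelial cluster END_7 and 832 CPM in END_17, whose library ranges overlapped, and next in the 3m astrocyte cluster AST_3m_5 at 548 CPM. *Dio2* led in AST_3m_5 at 107 CPM and in the P3 astrocyte cluster AST_P3_0 at 55.4 CPM, and it was at 0.215 CPM in END_7, where *Slco1c1* peaked. *Crym* led in AST_P3_1 at 3786 CPM and AST_3m_5 at 1923 CPM, whose library ranges of 2418 to 4270 and 1421 to 2830 CPM overlapped.

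The clusters with the highest level differed between the receptor genes. *Thra* was highest in the neuronal cluster NEU_22, at 647 CPM, then in ODC_2 at 448, in oligodendrocyte precursors (OPC_18) at 398 and in ODC_10 at 391 CPM, and it was lowest in microglia (MIC_16) at 33.8 CPM. Library ranges of ODC_2, OPC_18 and ODC_10 overlapped. *Thrb* was highest in the 3m astrocyte clusters, at 39.6 CPM in AST_3m_14 and 33.4 CPM in AST_3m_5. No other cluster exceeded 16.5 CPM, and in NEU_22, a cluster of 53 cells, no *Thrb* UMI was found, which allows up to 8.55 CPM. *Klf9* was highest in LOW_21, a 3m cluster of 68 cells that the authors left unidentified, at 333 CPM. It was at 235 CPM in END_17, at 182 and 164 CPM in the 3m astrocyte clusters and at 160 CPM in AST_P3_0. It was lowest in MIC_16 and LOW_20, at 19 and 5.17 CPM. In the P3 endothelial clusters END_12, END_13 and END_7 it was at 73, 25.4 and 21.5 CPM.

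**Figure D2:**
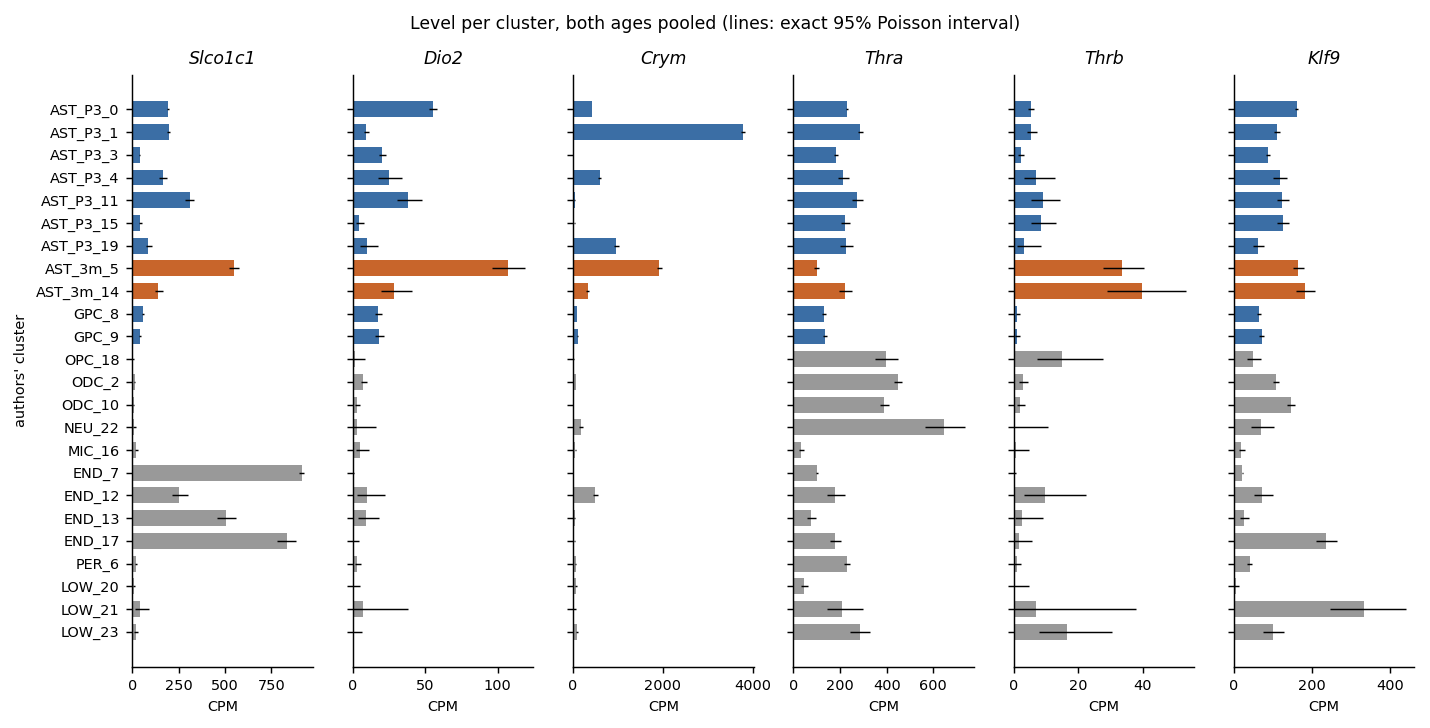
Level of each member in CPM (horizontal axes, linear from 0) in the authors' 24 clusters, UMIs of both ages pooled; blue bars are astrocyte (AST) and glial progenitor (GPC) clusters of P3, orange bars astrocyte clusters of 3m, grey bars other cell types, and lines are exact 95% Poisson intervals. *Slco1c1* is highest in endothelial END_7 and END_17, *Thra* in neurons and oligodendrocyte-lineage cells, and *Thrb* in both 3m astrocyte clusters.

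The share of astroglial cells with a UMI was compared after thinning every cell to 2000 UMIs, which left out 212 cells at 3m and 1113 at P3. For 5 of the 6 members the libraries of the ages did not overlap, and how many of all genes did so was not counted. *Slco1c1* was found in 55.2% ± 8.26 of 3m cells and 23.2% ± 1.34 of P3 cells (SD, n = 3 libraries each). *Crym* was found in 49.5% ± 0.22 against 27.6% ± 7.92, *Dio2* in 15.2% ± 5.72 against 6.04% ± 1.52 and *Thrb* in 6.97% ± 0.80 against 1.02% ± 0.10. *Thra* went the other way, at 20.4% ± 4.40 of 3m cells and 35.1% ± 4.18 of P3 cells.

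*Klf9* was found in 26.5% ± 2.45 and 22.1% ± 4.01 of cells, and its libraries overlapped. The exact permutation test, two-sided, gave p = 0.1 for each of the 5 genes, the smallest that 3 against 3 libraries allow, and p = 0.2 for *Klf9* (adjusted over the 6 comparisons 0.12 and 0.2). Oligodendrocytes of the same 3m libraries, thinned alike, gave a background of 0.977% to 1.9% for *Slco1c1*, 0.703% to 1.95% for *Dio2*, 5.06% to 7.42% for *Crym* and 0.195% to 0.844% for *Thrb*. Their median depth before thinning was 4607 to 8484 UMIs, against 3605 to 5522 in 3m and 6824 to 9811 in P3 astroglial cells. All 4 genes were above that background in the astroglial cells of every 3m library. The P3 share of *Thrb* was near it, but the background comes from 3m libraries and need not hold at P3. Among P3 cells *Thrb* was at 0.269 CPM in END_7, 0.692 CPM in the pericyte cluster PER_6 and 13.5 CPM in OPC_18. The P3 astroglial libraries held it at 3.66 to 4.48 CPM.

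**Figure D3:**
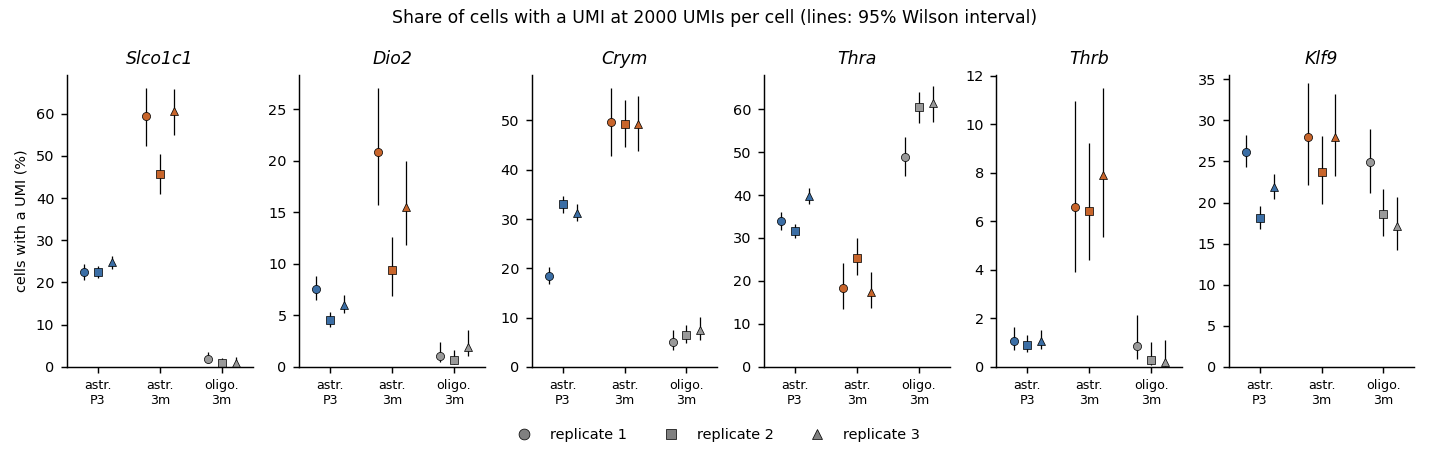
Percent of cells with at least 1 UMI of each member after thinning to 2000 UMIs per cell (vertical axes), per library, in P3 astroglial (blue), 3m astroglial (orange) and 3m oligodendrocyte (grey) cells; lines are 95% Wilson intervals, which cover counting error only. *Slco1c1*, *Dio2*, *Crym* and *Thrb* stand highest in 3m astroglial cells, and *Thra* in oligodendrocytes.

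At P3 every member was lower in cycling than in non-cycling astroglial cells of the same library. Cycling cells were those with a UMI in at least 2 of *Mki67*, *Top2a* and *Cdk1* after thinning, 593 cells against 7168, and no 3m cell met this. All 6 members passed the low-count filter. *Crym*, *Thrb* and *Slco1c1* were called lower, 3 of 6, where 14% of 13216 genes were called and 7.26% were called lower in cycling cells.

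*Crym* was at 46, 153 and 143 CPM in cycling cells of P3 replicates 1, 2 and 3. In the other cells of those libraries it was at 327, 1035 and 893 CPM. It fell by 2.63 on the log2 scale (SE 0.07, edgeR adjusted p = 1.13e-13). With both sides limited to telencephalic sub-clusters and sub-clusters 6 and 8, which leaves out sub-cluster 3, it fell by 1.40 and was still called.

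*Slco1c1* was at 59.9, 53 and 53.9 CPM in cycling cells and at 147, 127 and 156 CPM in the others, with no overlap. It fell by 1.25 on the log2 scale (SE 0.08, edgeR adjusted p = 3.18e-09). *Thrb* was barely detected in cycling cells, with 4, 5 and 2 UMIs or 1.26, 1.19 and 0.638 CPM. In the others it was at 5.03, 4.07 and 4.45 CPM, and it fell by 1.99 (SE 0.37, edgeR adjusted p = 0.000443).

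The other members passed the p threshold but not the fold. *Dio2* was at 25.2, 18.6 and 14 CPM in cycling cells and at 48, 25.7 and 31.2 CPM in the others, and its log2 fold change was -0.72 (SE 0.13, edgeR adjusted p = 0.000248). *Thra* and *Klf9* both had a log2 fold change of -0.57 (SE 0.07 each, adjusted p = 1.3e-05 and 5.03e-06). Both were lower in cycling cells in 3 of 3 libraries. Cycling cells were deeper, with a median of 16358 UMIs against 7778, and the part of depth was not tested. Low levels were also seen in P3 sub-clusters 2 and 11, which the study lists as *Mki67*-negative. *Crym* was at 25.9 and 17.5 CPM there, against 86.5 and 106 CPM in the *Mki67*-positive sub-clusters 6 and 8. *Slco1c1* was at 35.3 and 46.9 against 60.1 and 44 CPM, and *Dio2* at 19.2 and 4.69 against 18.2 and 18.6 CPM. *Thra*, *Klf9* and *Thrb* were higher in sub-clusters 2 and 11. The part of sub-cluster was not tested.

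**Figure D4:**
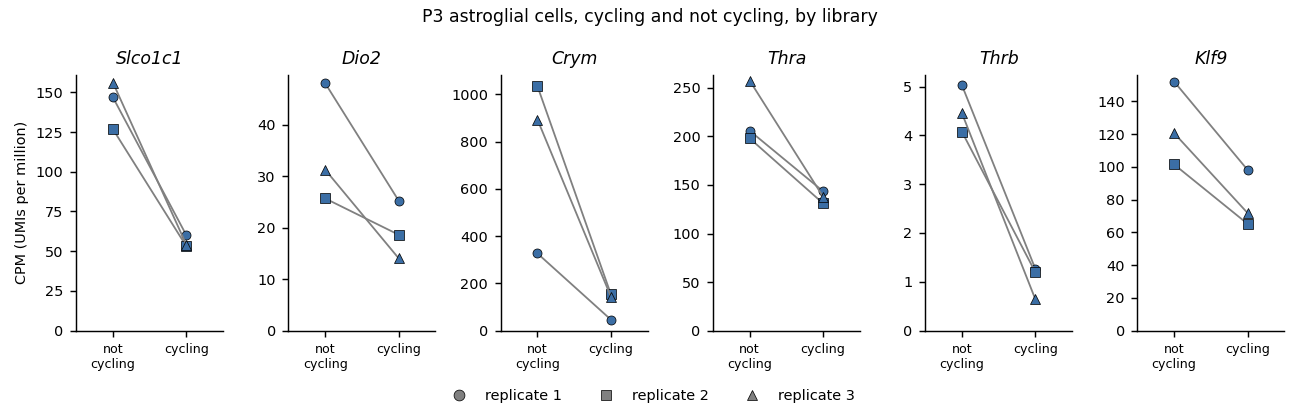
Level of each member in CPM (vertical axes, linear from 0) in P3 astroglial cells that were not cycling and that were cycling; each line joins the values of 1 library. Every line falls, from 327, 1035 and 893 to 46, 153 and 143 CPM for *Crym*.

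Along the authors' pseudotime, a score computed from a sub-cluster of cycling cells to the 3m telencephalic sub-clusters and cut into bins, the levels of 5 members were higher toward the 3m end. Bins 2 to 14 hold P3 cells almost alone and bins 16 to 19 hold 3m cells alone, so pseudotime and age cannot be told apart, and the values are a description. *Crym* was at 24 CPM in bin 11, 55.5 in bin 12, 220 in bin 13 and 813 in bin 14, all of P3 cells, and at 1749 and 2353 CPM in 3m bins 16 and 17. *Slco1c1* was at 24.9 CPM in bin 11, 241 in bin 14 and 657 in bin 19. The P3 cells thus spanned a wide range in both genes before the 3m cells began. Earlier bins are not given here. Sub-clusters 6, 8 and 2 come first, in that order, on the study's trajectory. *Crym* was at 86.5, 106 and 25.9 CPM in them and *Slco1c1* at 60.1, 44 and 35.3 CPM, so neither was lowest at the start.

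*Thrb* behaved otherwise. It did not exceed 5.56 CPM in any bin of P3 cells up to bin 14 and was at 25.9 to 43.8 CPM in 3m bins 16 to 19. *Thra* peaked within the P3 cells, at 241 CPM in bin 13, and was at 92.5 to 122 CPM in bins 16 to 19, near the 101 CPM of bin 10. *Klf9* was at 40.5 CPM in bin 10, at 159 in bin 14 and at 126 to 176 CPM in bins 16 to 19. *Dio2* was at 7.9 CPM in bin 10, at 45.2 in bin 14 and at 82.4 to 116 CPM in bins 16 to 19. Bin 10 was not the start for either gene. In sub-clusters 6, 8 and 2 *Klf9* was at 64.6, 72.9 and 85.4 CPM and *Dio2* at 18.2, 18.6 and 19.2 CPM, above their bin 10 levels.

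**Figure D5:**
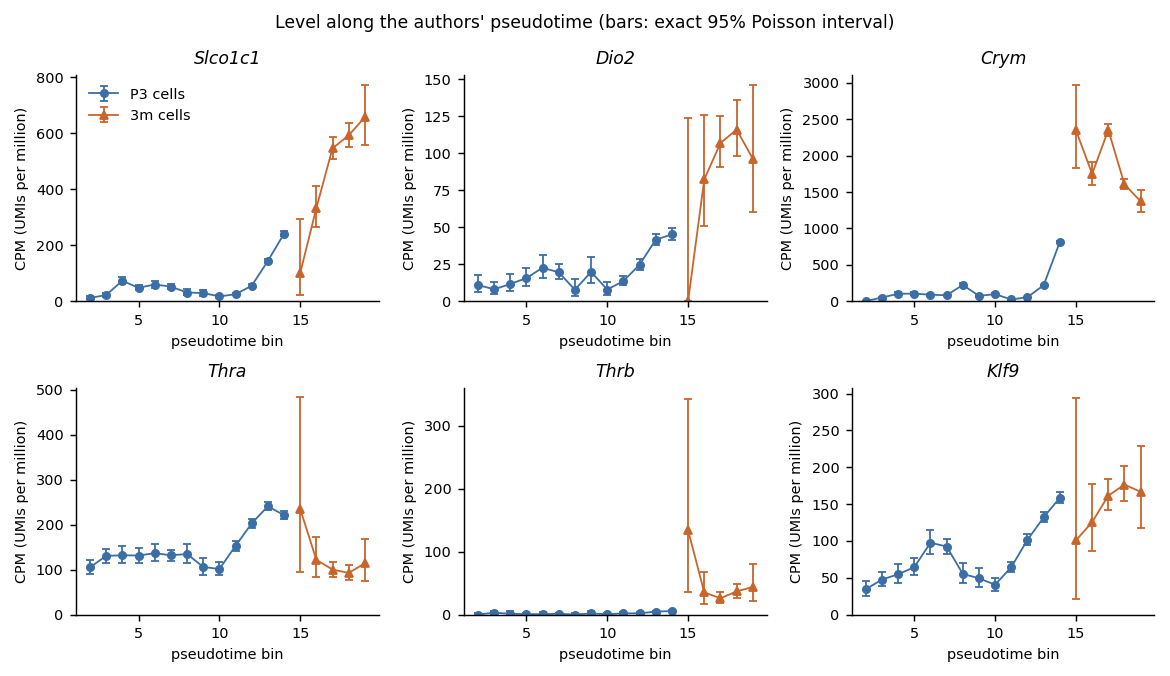
Level of each member in CPM (vertical axes, linear from 0) by pseudotime bin (horizontal axes, no unit), bins of at least 20 cells, P3 cells in blue and 3m cells in orange; bars are exact 95% Poisson intervals. *Crym* and *Slco1c1* are higher in each bin from 11 to 14, all of P3 cells, while *Thrb* stays at or below 5.56 CPM until the 3m bins.

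Of 27 other genes of thyroid hormone transport, metabolism and action, 20 passed the low-count filter in astroglial cells and 8 were called, 6 higher and 2 lower at 3m, beside the 32.1% of all genes called and 15.8% called higher. Their median log2 fold change was 0.66. Among transporters, *Slc3a2*, the shared heavy chain of amino acid transporters that also carry thyroid hormone, rose (1.12) and *Slc7a5*, one of its light chains, fell by 1.13 on the log2 scale. *Dio3*, the deiodinase that inactivates the hormone, had 4 UMIs at 3m and 42 at P3. *Dio1* had no UMI in astroglial cells, which allows up to 2.59 CPM in the smallest library sum.

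Among genes that respond to the hormone, *Thrsp* averaged 155 ± 47.8 CPM at 3m against 10.5 ± 4.87 CPM at P3 (SD, n = 3 each; log2 fold change 4.08, edgeR adjusted p = 2.85e-07). *Hr*, a corepressor whose gene is itself a target, had a log2 fold change of 3.71 on 33 UMIs at 3m. *Nrgn* (0.67) and *Me1* (-0.02) were not called. The sulfotransferase *Sult1a1* rose by 3.25. Of the receptor partners *Rxra* rose (1.58), *Rxrg* fell by 1.64 and *Rxrb* was not called (0.65). The coactivator *Ncoa1* rose (1.32). None of the 5 corepressors was called, and their median was -0.46, with *Ncor1* at 108 ± 21.4 CPM in 3m and 169 ± 41.6 CPM in P3 libraries (SD, n = 3 each).

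In the cycling comparison, where 14% of all genes were called, 2 of 20 tested pathway genes were called, *Sult1a1* lower in cycling cells (it fell by 1.92 on the log2 scale) and *Nrgn* higher (1.89). No other gene of the list joined the 3 members called there.

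Microglia (60 cells at 3m, 124 at P3) offered a second cell type for the age comparison, but no member passed the low-count filter in their sums. The members had between 0 and 6 UMIs each in the 3m microglia and between 1 and 56 in the P3 microglia. *Crym* was at 9.88, 9.93 and 0 CPM in the 3m libraries, where no UMI allows up to 56.2 CPM, and at 14.2, 51.6 and 121 CPM in the P3 libraries. Every one of these lay below the astroglial level of the same library. Of the 5 other pathway genes tested, *Sult1a1* was called (log2 fold change 3.40, edgeR adjusted p = 0.000557), where 10.1% of 2679 genes were.

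The genes whose levels ran most like each member's over the 24 clusters were ranked by Pearson's r of log2(CPM + 1) among 11839 genes, as a description over clusters that share libraries. Next to *Slco1c1* came *Egfl8* (r = 0.89), *Mansc1*, *Notch4*, *Fzd4* and *Prdm16*, each highest in an endothelial cluster. Next to *Dio2* came *Tspan7* (r = 0.88), *Ppp1r3g*, *Acsbg1*, *Ndp* and *Abcb9*, each highest in AST_3m_5. *Thrb* was followed most closely by *Chil1* and *Gpr37l1* (r = 0.85 each), then *Chpt1*, *Cideb* and *Elmod3*. *Thra* was closest to *Ube2e2* (r = 0.91), *Apbb1*, *Nap1l3*, *Tspyl4* and *Rufy2*. *Klf9* was closest to *Zbtb20* (r = 0.89), *Zfp617*, *Zfp799*, *Clstn1* and *Plekhn1*, and *Crym*, with the loosest match, to *Fxyd1* (r = 0.78), *Aifm3*, *Lhcgr*, *Sfrp5* and *Id4*. Among the members themselves r ran from -0.28 (*Thra* and *Slco1c1*) to 0.59 (*Thra* and *Klf9*).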

How the data were processed

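UMI counts per gene and cell were deposited as 1 table of all 6 libraries. The authors mapped reads to mm10 and counted UMIs with Cell Ranger, and they clustered the cells with Seurat (3.1.1 in the submitters' processing notes). The pseudotime score and its bins were deposited by the authors and have no unit. The study's cell filter was applied (more than 500 genes, less than 10% of UMIs mitochondrial), and doublets were not removed. Cell names were taken from the deposited clusters.

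The unit of replication was the library, 3 at each age, and UMIs were added up within each. These sums were tested across all genes with edgeR 4.0.16 (quasi-likelihood test, two-sided, TMM scaling, filterByExpr, Benjamini-Hochberg adjustment) in R 4.3.3. A positive log2 value means higher at 3m or higher in cycling cells, and the cycling fit had the library as a block. Calls needed both an adjusted p up to 0.05 and a log2 change of 1 or more in size. The labels do not say how the preparations differed, so p-values measure the spread between these libraries. DESeq2 1.42.0 served as an alternative. Shares were compared by exact permutation tests in scipy 1.17.1. The fits were tested on simulated data.

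The members, the 27 other pathway genes and the tests were chosen with earlier results of these data known. Pathway genes were named where called or at 10 CPM or more at either age, and a few below that (*Dio1*, *Dio3*) were named after their values were seen. One pathway gene that was tested and counted is not reported here. For each member the 5 genes with the highest r over clusters were named, among genes with at least 10 CPM in a cluster and 200 UMIs in all, predicted genes left out. The telencephalic and non-telencephalic sub-clusters were taken from the study's reading of them, and the fits on non-telencephalic cells and on the difference between lineages were added after seeing the data. Rerunning with other scalings, filters, cell sets and single libraries left out gave the alternatives in the closing section. Intervals cover counting error only. Where no UMI was found, the level said to be allowed is that of 3 UMIs in the same sum, not the upper end of the Poisson interval.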

Additional observations from a re-analysis of the deposited data

Results flagged for a closer look

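Age changes of 3 members differed between the telencephalic and the non-telencephalic astroglial cells by the test of the difference itself (edgeR, sums per library and lineage, library as a block). For *Crym* the change was 5.26 larger on the log2 scale in telencephalic cells, where it rose by 2.99, than in non-telencephalic cells, where it fell by 2.21. For *Slco1c1* it was 2.32 larger, with changes of 2.16 and -0.06. For *Thra* the difference was -0.62 (adjusted p = 0.0143), with changes of -0.93 and -0.14. Without 3m replicate 2, which held 261 of the 328 non-telencephalic cells of 3m, the *Thra* difference was -0.41 (adjusted p = 0.453).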

How the results depend on the processing

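Over the alternatives run, *Thrb* and *Dio2* kept their direction and call in the astroglial age comparison (log2 fold changes of 3.02 to 4.05 and 1.39 to 1.96). *Slco1c1* and *Crym* did so except in non-telencephalic cells, where the changes were -0.057 and -2.21, and except for *Crym* without replicate 1 of both ages (0.98). The 3 members called in the cycling comparison were called under every alternative run. Leaving out single libraries, the age-by-lineage difference ran from -0.51 to 0.29 for *Thrb* and from -0.18 to 0.54 for *Dio2* (0.25 for *Thrb* without replicate 1 of both ages). Called genes numbered 4344 in the astroglial comparison, 2603 in non-telencephalic cells and 2757 with libraries thinned to 1157485 UMIs, where fewer genes were tested. In microglia they numbered 271, 513 with no low-count filter, and 125 (without 3m replicate 1) to 255 without single libraries. Members whose shares did not overlap between ages numbered 5, or 3 in unthinned cells, where the *Klf9* difference was -10.7 percentage points against 4.46 thinned. Such a count over all genes was not made. The replicate numbers share no source in the labels, and deviations of same-numbered astroglial libraries correlated at 0.206, 0.0993 and 0.039, not always the best match. With the replicate block 4420 genes were called in the astroglial comparison, and without the library block (no replicate block) 1564 in place of 1844 in the cycling comparison. Scaling by library totals alone shifted all genes, whose median change went from -0.04 to -0.24 (log2). It lowered the share of calls that were higher from 49.3% to 38.6%, and in microglia from 66.1% to 52%, while *Slco1c1*, *Dio2*, *Crym*, *Thrb* and *Klf9* stayed positive. Depth limits *Thrb*, with 156 UMIs over the 3m astroglial cells, and the microglial values.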

Other observations

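Other genes of the pathway also differed between the lineages in their age change. By the age-by-lineage test 9 of 19 tested genes were called, where 17.1% of 10181 genes were. Of the 9, 3 had the more positive change in telencephalic cells and 6 had it in non-telencephalic cells. *Thrsp* rose in both, by 4.62 and 2.14. *Nrgn*, known as a hormone-responsive gene of forebrain neurons, was at a log2 fold change of 0.61 in telencephalic and 5.19 in non-telencephalic cells (difference -4.65, SE 0.53, edgeR adjusted p = 1.28e-07). The *Nrgn* level in non-telencephalic cells was 112 to 374 CPM over the 3m libraries and 0.836 to 10 CPM over the P3 libraries. *Slc7a5* fell by 1.76 in telencephalic cells and was not called in the others (1.15).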
